A study of Mus musculus with 12 samples.

Results

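Class II myosins are motor proteins that pull on actin filaments, and their heavy chain carries the motor domain and the long coiled-coil tail with which the molecules assemble into filaments. Non-muscle heavy chains (Myh9, Myh10 and Myh14) work in most cells in division, adhesion and migration, Myh11 is the smooth muscle form, and the striated forms (here Myh3, Myh6, Myh7, Myh7b and Myh15) belong to sarcomeres of skeletal muscle and heart. N6-methyladenosine (m6A), the most common internal modification of mRNA, is often found in long internal exons and near stop codons. These 9 genes were selected on the m6A peaks of the lists described here, by their number, position, width and score percentile, out of 14 class II heavy chain genes in the RefSeq table and 13753 protein-coding genes with a peak in at least 1 list. The values below are therefore a description, and no test was run on them.

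The study mapped m6A by sequencing mRNA fragments that an m6A antibody had captured. The iNSC group comprised 3 libraries of neural stem cell-like cells derived from mouse spermatogonial stem cells on laminin, with 1 µM retinoic acid for 24 h and then a neural medium with the TGF-β receptor inhibitor SB431542 at 10 µM and 20 ng/mL basic FGF. The SSC group comprised 3 libraries of the starting spermatogonial stem cells, grown on inactivated STO feeder cells, a mouse embryonic fibroblast line, with GDNF, EGF, LIF and 10 ng/mL basic FGF. No strain, genotype or age is given, and the labels do not say whether the libraries of a group came from separate cultures.

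Groups follow the sample titles, since in 12 of 12 samples the cell type field gives the other cell type. Of 15 germ cell markers, 1, 1 and 2 had a peak in the iNSC lists, against 11, 9 and 11 in the SSC lists. Of 15 neural stem cell markers, 4 had a peak in each iNSC list, against 8, 5 and 9 in the SSC lists, so these markers did not separate the groups in the direction of the name. The iNSC lists held 13913, 16002 and 16060 peaks with median widths of 433, 397 and 368 bases, against 27597, 19728 and 24775 peaks with median widths of 193, 205 and 202 bases in the SSC lists. Where a peak is missing, fewer cells that express the gene, fewer transcripts per cell and less methylation cannot be told apart.

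The score of a peak, deposited without a unit, was used only as a percentile, the share of peaks in the same list with a lower score. Scores were read with a cap of 3100, so that any higher score would count as 3100. The cap stands at percentile 85.0, 82.4 and 83.9 in the iNSC lists and 96.3, 92.4 and 95.5 in the SSC lists. The top percentile therefore differs between lists by construction.

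The heavy chain genes held few peaks in iNSCs and many in SSCs. The 9 genes together had 6, 5 and 7 peaks in the iNSC lists, against 70, 68 and 62 in the SSC lists. The groups did not overlap, but neither did the totals of all peaks. The means were 6 ± 1 peaks in iNSC lists and 66.7 ± 4.16 in SSC lists (SD, n = 3 each). As a share of all peaks in a list, this was 0.0431%, 0.0313% and 0.0436% in iNSCs, against 0.254%, 0.345% and 0.250% in SSCs. The gap was wider than that in list length, but the genes were chosen on these peak numbers, so nothing is read from it. With every list cut to the 13913 best-scoring peaks, the means were 5.67 in iNSC lists and 47.3 in SSC lists. With the lower-scoring 50% of every list left out, they were 4.67 in iNSC lists and 42.7 in SSC lists. All 18 iNSC peaks lay in non-muscle genes, 16 of them in Myh9 and 2 in Myh10. The SSC lists held 32 ± 1 peaks in non-muscle, 12 ± 1.73 in smooth muscle and 22.7 ± 2.08 in striated genes (SD, n = 3).

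**Figure D1:**
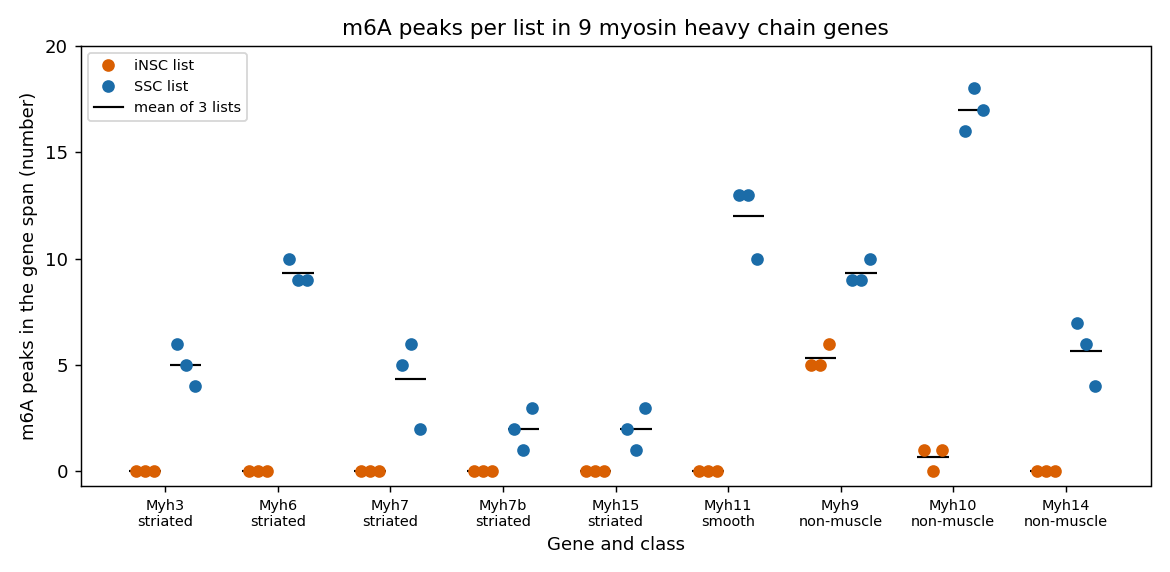
The number of m6A peaks in each gene span is plotted for the 3 iNSC lists (left of each pair) and the 3 SSC lists, with a line at the mean of 3 lists. Myh9 had 5 or 6 peaks in iNSC lists, Myh10 had 0 or 1, and the other 7 genes had none there.

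Of the 9 genes, 7 had a peak in 3 of 3 SSC and 0 of 3 iNSC lists, against 10.9% of all genes with a peak. None had the reverse pattern (2.44% of all genes). Myh9 alone had a peak in all 6 lists (30.6% of all genes), and without iNSC replicate 2 Myh10 joined it, which made 2. These counts come from the contrast by which the genes were chosen, so nothing is read from them against the shares of all genes. The next genes outside the choice were Myh13, with 1 peak each in SSC replicates 1 and 2, Myh2 with 2 peaks in SSC replicate 3, and Myh1, Myh4 and Myh8 with 1 peak in 1 SSC list each. The sparsest genes inside it, Myh7b and Myh15, both had 2, 1 and 3 peaks in the SSC lists.

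Some sequences at which the peaks can be placed are shown first. Peaks touched the transcription start of Myh9 and Myh10. The RefSeq promoter sequences (GRCm38.p6) run from 250 bases before the start to 30 bases after it, and capitals mark the bases after the start, which lie inside the peak of the lists named below.
Myh9, chr15:77842146-77842425, minus strand: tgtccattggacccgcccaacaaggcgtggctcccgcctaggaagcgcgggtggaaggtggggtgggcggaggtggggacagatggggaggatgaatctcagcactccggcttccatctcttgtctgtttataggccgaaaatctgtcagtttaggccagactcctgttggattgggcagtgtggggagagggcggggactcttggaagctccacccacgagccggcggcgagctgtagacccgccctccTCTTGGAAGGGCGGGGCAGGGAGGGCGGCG
Myh10, chr11:68691665-68691944, plus strand: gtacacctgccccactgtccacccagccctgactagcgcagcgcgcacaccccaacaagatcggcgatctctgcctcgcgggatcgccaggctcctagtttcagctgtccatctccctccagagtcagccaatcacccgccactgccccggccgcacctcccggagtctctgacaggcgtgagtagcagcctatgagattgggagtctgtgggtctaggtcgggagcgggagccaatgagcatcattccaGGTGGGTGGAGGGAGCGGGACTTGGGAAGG
The letters GGACT, the best known core of the m6A motif, stand at bases 18 to 22 of the Myh10 transcript and are not in the first 30 bases of Myh9. Among 32851 promoter entries, 3.11% hold GGACT on the transcribed strand in these 30 bases, and 42.8% hold it on either strand of the 280 bases. A match is a description of letters and not a methylated site.

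Muscle heavy chain genes also host microRNAs, and these are shown because the peaks in their host genes did not cover them. Capitals mark the seed, bases 2 to 8, and the sequences are those of RefSeq (GRCm38.p6).
mmu-miR-208a-3p, in Myh6: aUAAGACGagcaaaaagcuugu
mmu-miR-208b-3p, in Myh7: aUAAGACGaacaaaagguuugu
mmu-miR-499-5p, in Myh7b: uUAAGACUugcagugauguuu
The miR-208a and miR-208b sequences share the whole seed and 19 of 22 positions, and the miR-499 seed differs from theirs in its last base (6 of 7 bases the same). No peak of any list overlapped these sequences. The nearest peaks lay 245 bases from miR-208a-3p, 148 bases from miR-208b-3p and 4700 bases from miR-499-5p.

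Myh9 encodes the heavy chain of non-muscle myosin IIA, which drives cortical tension and cell migration. Its span is chr15:77760585-77842175 on the minus strand (gene ID 17886). It had 5, 5 and 6 peaks in the iNSC lists, against 9, 9 and 10 in the SSC lists. These ranges did not touch, but neither did the lengths of the lists as a whole. At equal list length the counts were 5, 5 and 6 in iNSC lists and 8, 7 and 8 in SSC lists. The peaks covered 1097, 1091 and 1310 bases in iNSC lists and 1636, 1787 and 1952 bases in SSC lists.

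The iNSC peaks of Myh9 fell on regions that the SSC lists also held, with the same edges. Toward the 3′ end stood 5 regions, between 3207 and 14489 bases from it, and 4 of them were called in all 6 lists. The exception was chr15:77767451-77767663, which was called in iNSC replicates 2 and 3 and all SSC lists. Each of the 5 had identical start and end in every list that called it, whereas over the whole lists iNSC peaks were wider than SSC peaks. The first of them from the 3′ end, chr15:77763792-77764000, stood at percentiles 84.6, 73.8 and 83.9 in iNSCs, against 94.3, 92.4 and 95.5 in SSCs. Its peaks in iNSC replicate 3 and SSC replicates 2 and 3 were at the cap, which has a lower percentile in iNSC lists. The groups are therefore not ranked by these percentiles. The region chr15:77768792-77769040 varied more, at 85.0, 49.1 and 83.9 in iNSCs, against 54.8, 92.4 and 95.5 in SSCs, so its groups overlapped. Its peaks in iNSC replicates 1 and 3 and SSC replicates 2 and 3 were at the cap.

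Upstream of these, Myh9 peaks were called in SSCs alone apart from the gene start. The regions chr15:77795961-77796054 and chr15:77807670-77808024 were called in 3 SSC lists and no iNSC list. Their percentiles in the SSC lists were 68.9, 82.1 and 56.7 for the first region. The second region had percentiles of 75.9, 79.6 and 55.8. The peak at the gene start, chr15:77841957-77842175, was called in iNSC replicates 1 and 3 (percentiles 33.3 and 61.8), against SSC replicates 2 and 3 (11.8 and 5.60). It begins at the first transcribed base shown above.

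Myh10 encodes the heavy chain of non-muscle myosin IIB, abundant in the nervous system and embryonic tissue. Its span is chr11:68691915-68816626 on the plus strand (gene ID 77579). It had 1, 0 and 1 peaks in the iNSC lists, against 16, 18 and 17 in the SSC lists, the widest gap of the 9 genes in peak number. Only 2.36% to 3.90% of the genes with a peak held 9 or more in an SSC list. In SSCs 12 regions of Myh10 were called in 3 of 3 lists, and 11 of those in no iNSC list.

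The exception was chr11:68808793-68808921, the only Myh10 region with an iNSC peak. There the iNSC peaks were 107 and 85 bases wide at percentiles 8.55 and 9.44. In the SSC lists the peak was 129 bases wide at percentiles 63.1, 81.5 and 64.4. At equal list length the iNSC replicate 3 peak was lost, and among the better-scoring 50% of peaks no iNSC peak of Myh10 was left. The best Myh10 percentiles in SSCs were 89.8, 92.4 and 95.5, the cap in SSC replicates 2 and 3. The region chr11:68787338-68787544 held the best peak in SSC replicate 1 and a capped one in the other 2 SSC lists. The peak at the gene start, in SSC replicates 2 and 3 at percentiles 50.8 and 64.6, covered the GGACT shown above in SSC replicate 2 alone, since that of replicate 3 began further in.

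**Figure D2:**
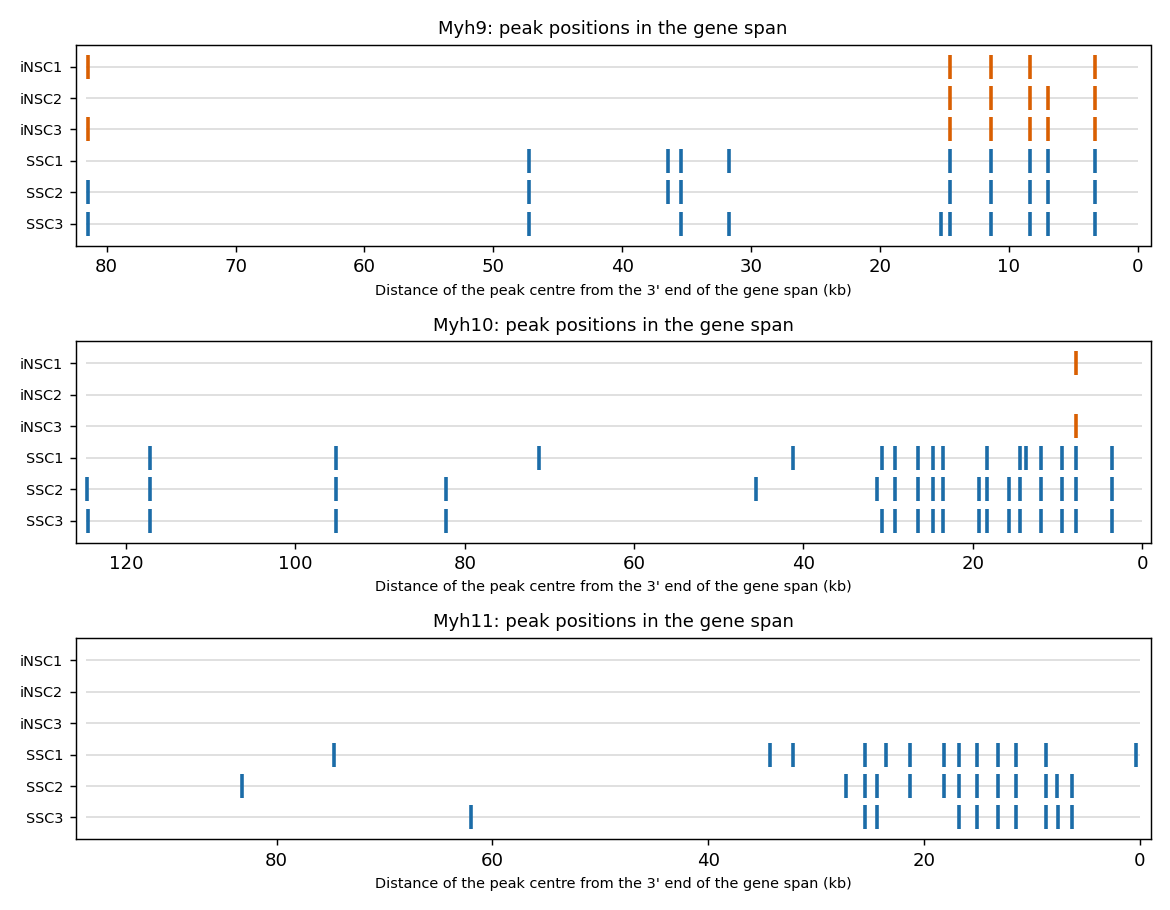
Each tick is the centre of a peak in Myh9, Myh10 or Myh11, placed by its distance in kb from the 3′ end of the gene span, with 1 line for each list. The 5 regions of Myh9 between 3207 and 14489 bases from the end line up in iNSC and SSC lists, while Myh10 and Myh11 ticks stand in SSC lists apart from 2 iNSC peaks of Myh10.

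Myh14 encodes the heavy chain of non-muscle myosin IIC. Its span is chr7:44605803-44670872 on the minus strand (gene ID 71960), and the table also lists Myh14 as an older name of Myh7b, so both were taken by their current symbols. It had no iNSC peak, against 7, 6 and 4 peaks in the SSC lists, with best percentiles of 57.4, 71.3 and 74.0. Its peaks agreed less between SSC lists than those of Myh9 and Myh10. Of 12 regions none was called in 3 SSC lists, 5 were called in 2 lists and 7 in 1.

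Myh11 encodes the smooth muscle heavy chain, a marker of contractile smooth muscle that testicular peritubular myoid cells also express. Its span is chr16:14194527-14292188 (gene ID 17880). It had no iNSC peak, against 13, 13 and 10 peaks in the SSC lists, all on the minus strand. Of 19 regions 6 were called in 3 of 3 SSC lists. One of these, chr16:14205911-14206123, stood at percentiles 85.5, 76.0 and 85.2, the best Myh11 peak in SSC replicates 1 and 3. At equal list length it kept 3, 11 and 6 SSC peaks, so SSC replicate 1 held mostly low-scoring ones (median percentile 23.0, against 57.7 and 49.5 in SSC replicates 2 and 3).

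Beside it, smooth muscle and myoid markers were listed in both groups, in 3, 4 and 4 of 11 genes in iNSCs, against 6 in each SSC list. Acta2, smooth muscle actin, had no iNSC peak, against 3, 3 and 4 SSC peaks. Smtn and Mylk had a peak in all 6 lists, as did Tagln when both strands were counted but not on its own strand alone. Actg2, Cnn1, Itga8 and Pln had none. The part of such cells in the Myh11 peaks was not tested.

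The 5 striated genes had no peak in the iNSC lists, against 25, 22 and 21 in the SSC lists. Myh6, the α heavy chain of the heart, held the most. Its span is chr14:54941921-54968017 on the minus strand (gene ID 17888), with 10, 9 and 9 SSC peaks. It is partly overlapped by the plus-strand gene Cmtm5 and by Gm52092, a long non-coding RNA gene with no strand given. The best percentiles of Myh6 were 88.5, 92.4 and 94.99, and 4 peaks of SSC replicate 2 were capped. The peak chr14:54953698-54953953, the best in SSC replicates 1 and 3 and capped in SSC replicate 2, lies within the span of Gm52092, so its gene is uncertain. Of 12 Myh6 regions 7 were called in 3 of 3 SSC lists.

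Myh7, the β or slow heavy chain, lies next to it at chr14:54970684-54994626, also on the minus strand (gene ID 140781). It had 5, 6 and 2 SSC peaks. The region chr14:54972688-54972963 was called in 3 of 3 SSC lists at percentiles 86.8, 92.4 and 95.5, while the other 6 regions were called in 1 or 2. Of the 13 peaks 2 were on the plus strand, in SSC replicates 2 and 3, at chr14:54973878-54974241. They lie within the span of Mhrt, a long non-coding RNA gene of the plus strand that overlaps Myh7 and is known from the heart. On the minus strand alone, Myh7 had 5, 5 and 1 SSC peaks.

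Myh3, the embryonic skeletal heavy chain, had 6, 5 and 4 SSC peaks in the span chr11:67078273-67102291 on the plus strand (gene ID 17883). Its best percentiles were 79.7, 92.4 and 94.0, and 3 of its peaks were capped in SSC replicate 2. Regions called in 3 of 3 SSC lists were chr11:67094474-67094863, chr11:67099178-67099486 and chr11:67100798-67100968. The last of these stood at percentiles 62.7, 92.4 and 94.0.

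Myh7b, a slow-type form and host of miR-499, lies at chr2:155611243-155634307 on the plus strand (gene ID 668940). Myh15 lies at chr16:49057400-49199563 on the plus strand (gene ID 667772). Neither had a region called in 3 SSC lists. The best percentiles of Myh7b were 58.5, 25.8 and 55.8. Those of Myh15 were 0.888, 17.8 and 59.6. Among the better-scoring 50% of peaks, Myh7b had 2, 0 and 2 SSC peaks and Myh15 had 0, 0 and 1, so the presence of both genes in all SSC lists rests on low-scoring peaks. Members of this family are alike in sequence, most closely Myh6 and Myh7, and how reads with several matches were treated is not given in the sources used here. Peaks in the striated genes are therefore uncertain as to the gene.

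**Figure D3:**
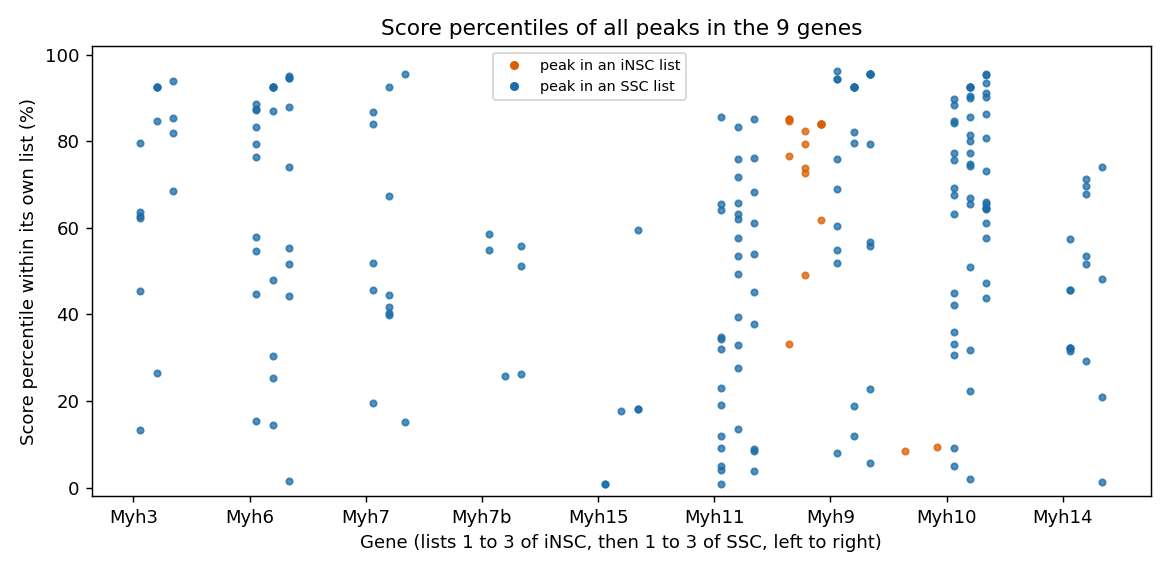
Every peak of the 9 genes is a point at its score percentile within its own list, with iNSC lists 1 to 3 left of SSC lists 1 to 3 for each gene. Peaks of Myh3, Myh6, Myh7, Myh9 and Myh10 reach the cap of a list (92.4 in SSC replicate 2), while those of Myh7b, Myh15 and Myh14 stay at or below percentile 74.0.

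Other genes of striated muscle were also listed mainly in SSCs. Of 31 striated muscle markers, 1, 3 and 2 had a peak in the iNSC lists, against 15, 16 and 12 in the SSC lists. The groups did not overlap, nor did they over all protein-coding genes with a peak. Those numbered 6953, 7512 and 7423 in iNSC lists and 10320, 8523 and 10361 in SSC lists. Titin (Ttn) had no iNSC peak, against 58, 31 and 45 SSC peaks. Nebulin (Neb) had 52, 28 and 50 SSC peaks and the calcium release channel gene Ryr1 had 6, 9 and 8, both with none in iNSCs. Tnni3, Mybpc1 and Ryr2 were also called in SSCs alone, among 10 such genes of 19 with a peak (10.9% of all genes). The muscle-determining factors Myod1, Myf5 and Myf6 had no peak in any list, nor did Acta1, Actc1, Ckm or Nppa. Myog had 1 peak, in SSC replicate 3. The part of muscle cells or of muscle-type transcription in these peaks was not tested.

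Peaks of the 9 genes crowded toward the 3′ side of the gene span but seldom reached its last bases. The median peak centre stood at 89.8% of the span in iNSC lists (18 peaks) and at 80.2% in SSC lists (198 peaks on the gene's strand). In other protein-coding genes of similar span it stood at 68.5% and 63.7%. The last 2000 bases of the span held 0 of 18 peaks in iNSCs and 11 of 198 (5.56%) in SSCs, against 18.9% and 12.8% of the peaks in the other genes. In non-muscle genes no peak of either group was in that stretch, and Myh6 held 5 of the 11. The first 500 bases held 2 of 18 peaks in iNSCs and 5 of 198 in SSCs. In the other genes they held 9.92% and 8.83%. A region called in several lists was counted once for each of them. Positions are along the gene span, introns included, and not along the mRNA. Position was among the measures by which the genes were chosen, so these values are given with no test and no difference is read from them.

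Merging peaks that overlapped on 1 strand gave 101 regions in the 9 genes. Of these, 30 were called in 3 of 3 SSC and 0 of 3 iNSC lists (5.59% of all regions), 0 in the reverse case (3.42%) and 4, all in Myh9, in all 6 lists (10.1%). With 2 of 3 libraries required the first count was 56. Of 63 regions found in at least 2 lists, 54 (85.7%) had the same start and end in at least 2 of them. Among all such regions of the 6 lists, inside genes or not, this was 65.8%.

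Some widths of these regions recurred between genes in the same order, with other regions between them. Among the 54 regions with repeated edges there were 32 widths, of which 11 occurred in at least 2 of the genes, and 33 regions had such a width. A width of 249 bases was found once each in Myh9, Myh10, Myh14 and Myh11, and in 0.153% of all 17002 such regions. A width of 207 bases was found in 6 regions of the same 4 genes (0.282% of all), and 213 bases in 6 regions of Myh9, Myh10 and Myh11 (0.341%). Width was among the measures by which the genes were chosen, and these counts are given with no test.

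Read from the 3′ end toward the start, over all regions on the gene's strand and with those called in 1 list included, Myh10 and Myh11 shared 213, 249, 207, 145, 213, 172, 138, 207 and 157 bases in that order. Regions of other widths stood between some of these and were passed over, such as a 105-base region after 249 in Myh10 and a 124-base region after 172 in Myh11. Myh14 shared with both of them, likewise with others passed over, the order of 213, 249, 207, 213, 172 and 207 bases. Myh9 shared 213, 249, 213 and 207 bases with the other 3 genes, all within the 5 regions near its 3′ end that iNSCs shared. The distances between regions differed, since the 249-base region lay 8207 bases from the 3′ end in Myh9, 14270 in Myh10, 17173 in Myh14 and 13013 in Myh11.

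Among the 5 striated genes, Myh3, Myh6 and Myh7 shared other widths. Myh3 and Myh6 shared 309, 184, 197 and 390 bases in order from the 3′ end. Myh6 and Myh7 shared 276, 184, 197 and 390 bases. Myh7b and Myh15 shared no width in order with these 3 genes. A striated gene and a non-muscle or smooth muscle gene shared at most 1 width in order. Exon models were not used here, so whether these regions are corresponding exons was not tested.

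**Figure D4:**
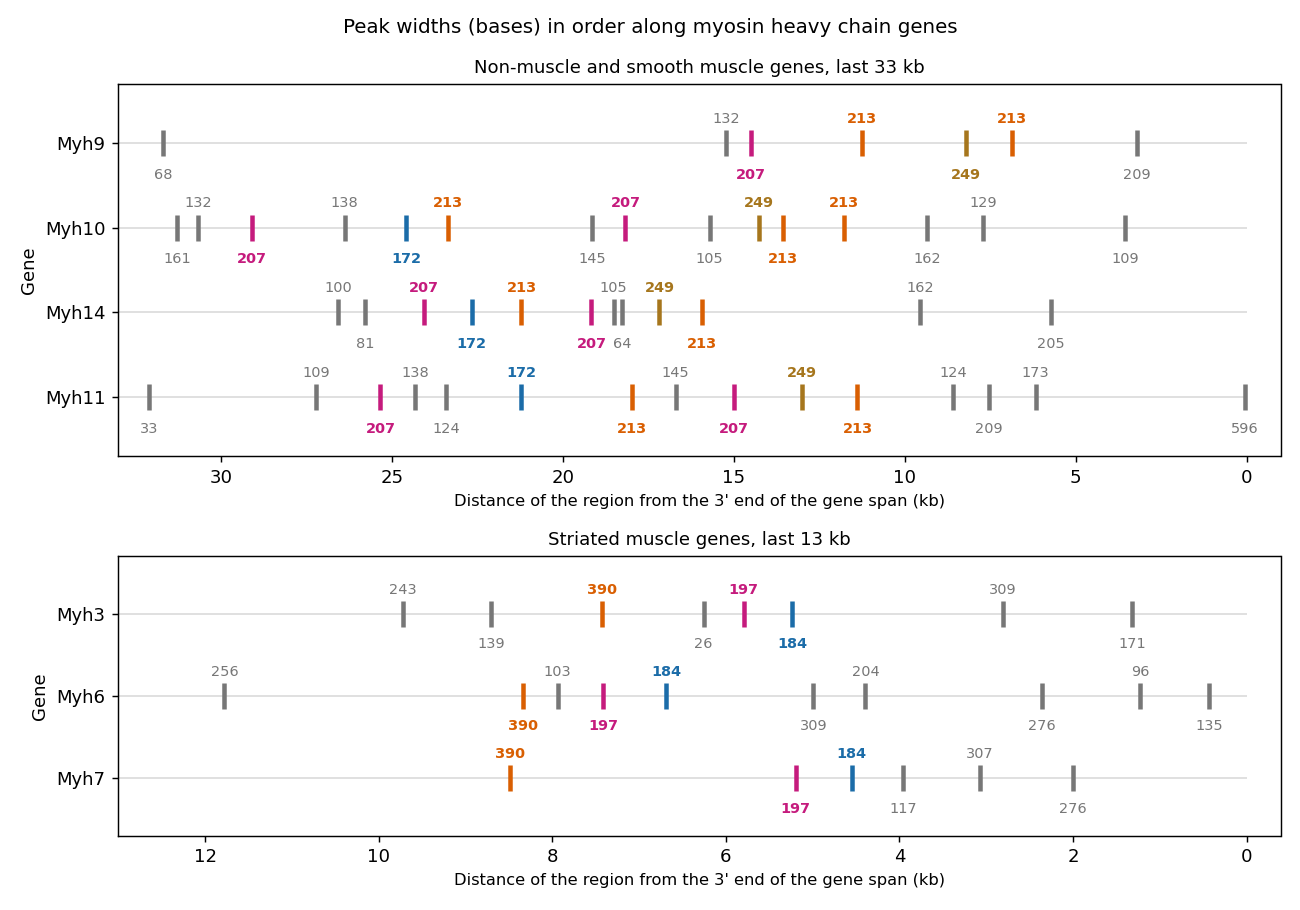
Each tick is a merged region, placed by its distance in kb from the 3′ end of the gene span and marked with the width in bases of its most frequent peak, in colour where at least 2 pairs of genes in a panel share it in order. The order 213, 249 and 207 bases recurs in Myh9, Myh10, Myh14 and Myh11, with other regions between in all but Myh11. The order 184, 197 and 390 bases recurs in Myh3, Myh6 and Myh7.

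Genes that work with the heavy chains were taken from lists drawn up with earlier results known. Of 19 regulators and chaperones of myosin II, 17 had a peak, 12 of them in all 6 lists (30.6% of all genes) and 0 in 1 group alone by the 3 of 3 rule. Together the list had 77, 80 and 87 peaks in iNSCs, against 110, 102 and 106 in SSCs. These totals did not overlap, but neither did the totals of all peaks. Those were 13913, 16002 and 16060 in iNSC lists and 27597, 19728 and 24775 in SSC lists. The genes differed among themselves, and those named here were singled out after their values were seen. Rock1, a kinase that activates myosin II, had 17, 16 and 17 peaks in iNSCs, against 19, 17 and 15 in SSCs, so the groups overlapped. Rock2 had 14 in each iNSC list, against 16, 14 and 13 in SSCs. Ppp1r12a, the targeting subunit of myosin phosphatase, had 12, 14 and 13 in iNSCs, against 14, 14 and 10 in SSCs. Other regulators had more peaks in SSCs without overlap, as did the lists as a whole. Ppp1r12b, another targeting subunit, had 4, 4 and 3 in iNSCs, against 9, 8 and 12 in SSCs. Anln, an actin- and myosin-binding protein of cell division, had 2, 4 and 3 in iNSCs, against 6, 5 and 7 in SSCs. Mylk, myosin light chain kinase, had 3, 3 and 2 in iNSCs, against 4, 7 and 4 in SSCs. With peaks on each gene's own strand alone, 11 of the 17 had a peak in all 6 lists, since Mylk4 dropped out.

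Of 12 myosin light chain genes, 5 had a peak and none was called in 3 of 3 lists of 1 group and 0 of 3 of the other. Myl12b, a regulatory light chain of non-muscle myosin, had 0, 1 and 0 peaks in iNSCs, against 2, 1 and 2 in SSCs. Of 24 unconventional myosin genes, which encode motors of cargo transport and membrane tension, 20 had a peak. Among them 10 had a peak in all 6 lists and 5 were called in SSCs alone (10.9% of all genes), including Myo1a, Myo15, Myo1f and Myo5c. Myo15 had no iNSC peak, against 3, 1 and 4 SSC peaks with best percentiles of 39.5, 20.4 and 44.6. Myo5a, Myo9a, Myo10 and Myo18a were among those in all 6 lists.

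**Figure D5:**
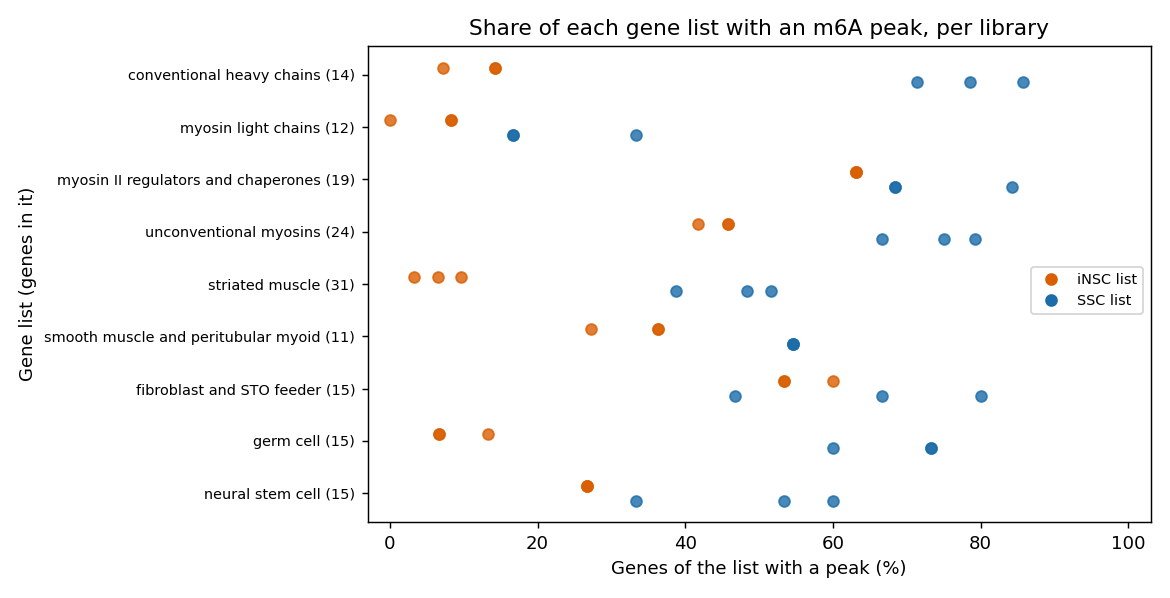
The share of genes with a peak in percent is plotted for each list of genes, with 1 point for each iNSC and SSC library. For the 14 heavy chain genes the iNSC libraries hold 2, 1 and 2 genes and the SSC libraries 12, 11 and 10. For regulators of myosin II the iNSC libraries hold 12 each and the SSC libraries 13, 13 and 16. Over all protein-coding genes, 6953, 7512 and 7423 had a peak in iNSC libraries, against 10320, 8523 and 10361 in SSC libraries. Of the heavy chain genes, 9 were chosen on these peaks, so the lists are not compared.

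Fibroblast and feeder markers, given because SSCs had been grown on STO cells, were listed in both groups. Of 15 such genes, 8, 8 and 9 had a peak in iNSCs, against 10, 7 and 12 in SSCs. Pdgfra had 5, 4 and 5 peaks in iNSCs, against 5, 1 and 4 in SSCs. Twist1 was the 1 gene of the list with a peak in 3 of 3 SSC and 0 of 3 iNSC lists (10.9% of all genes). Dcn, Thy1 and Lum had a peak in 1 or 2 SSC lists and in no iNSC list, while Twist2 had peaks in iNSC replicates 2 and 3 and in no SSC list. The part of feeder cells in the peaks of Myh9, Myh10 and Myh11 was not tested.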

How the data were processed

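Peak lists of 6 m6A immunoprecipitation libraries were used, and the 6 input samples were not analysed here. The series type speaks of methylation profiling, whereas the labels' protocols describe RNA fragments of about 200 nt pulled down with an m6A antibody, which was followed. HISAT2 2.0.4, cutadapt 1.9.3 and the build mm9 appear in the submitters' processing notes. Neither a peak caller nor its threshold is given in the sources used here. The authors deposited 1 score for each peak, without a unit. The lists hold no read counts, so depth is unknown.

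Between 5.01% and 12.2% of peaks in a list shared an edge with a gene of the RefSeq GRCm38.p6 table, against 0.00807% to 0.0216% after a shift of 10000 bases, so coordinates are given on GRCm38, 1-based. A peak belonged to a gene when it overlapped its span by at least 1 base on either strand. Gene strand came from the RefSeq promoter table or, for a gene without an entry there such as Myh11, from most of its peaks. Positions used peaks on the gene's strand. Merged regions shared at least 1 base on 1 strand. A region's width is that of its most frequent peak, or the widest at a tie. Genes of similar span were those between the shortest and the longest of the 9.

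The members and gene lists were chosen with earlier results of these data known. All 9 genes are named, and from each other list the genes called in 3 of 3 lists of 1 group and 0 of 3 of the other, up to 6 per direction, except that 1 such gene is not reported here. Others among them were named after their values were seen. Alternatives were the better-scoring 50% of each list, equal length, 2 of 3 libraries, 50% of the peak inside the gene, merging within 100 bases, the gene's strand alone and leaving out each library. Calls were checked on simulated data with Python 3.11.15, and figures drawn with matplotlib 3.10.9.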

Additional observations from a re-analysis of the deposited data

How the results depend on the processing

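Of 86 alternative values for the totals and calls, 81 stayed within 1.5 times the count or within 1 SD of the mean. Some of these could not move, since leaving out a library of 1 group leaves the mean of the other group as it was. Calls in iNSCs alone had little room to change, as the genes were chosen on this contrast. The share that stayed is therefore no measure of robustness. The 7 genes called in SSCs alone numbered 6 among the better-scoring 50% of peaks, where Myh10 joined and Myh7b and Myh15 dropped out, 5 with lists of equal length, and 7 without any 1 library. No alternative gave a gene or region called in iNSCs alone. The better-scoring 50% lowered the mean number of peaks to 4.67 in iNSC lists and 42.7 in SSC lists, and equal length lowered that of SSC lists to 47.3. With 2 of 3 libraries, 56 regions were called in SSCs alone. Leaving out 1 library gave 1 to 2 genes with a peak in all lists, 30 to 44 regions called in SSCs alone and 4 to 5 regions in all lists. The differences per gene, added after the data were seen, kept their sign in 90 of 90 values. This says little, since the 7 genes without any iNSC peak could not change sign when peaks or libraries were left out. The genes were also chosen on this contrast. No paired analysis was possible because these results come from no test, and the labels do not say whether equal replicate numbers mark paired samples. The lists hold no counts, so depth limits every absent peak to an unknown degree.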

Other observations

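Cardiac troponin T (Tnnt2), a thin filament gene of the heart, had more peaks in iNSCs than in SSCs, unlike the 10 striated muscle markers called in SSCs alone, and was singled out after its values were seen. It had 7, 6 and 7 peaks in the iNSC lists, against 3, 2 and 0 in the SSC lists. The share of all genes with such a difference was not counted, so nothing is read from it. Its best percentiles were 71.4, 75.4 and 83.9 in iNSCs, against 70.0 and 2.66 in SSC replicates 1 and 2, the SSC lists that held it. Tnnc2, a calcium-binding troponin of fast muscle, had 0, 1 and 1 peaks in iNSCs, against 0, 1 and 0 in SSCs.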
